A study of Homo sapiens with 4 samples.

Results

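The genes described here encode the glycosyltransferases of the Golgi apparatus that build O-glycans, N-glycans and glycolipids. They were taken by name, from the families B3GALT, B3GNT, B4GALT, B4GALNT, GALNT, GCNT, MGAT, FUT, ST3GAL, ST6GAL, ST6GALNAC and ST8SIA followed by a number. This rule reads no measured values, but it was chosen with earlier results of these data known. Of the 20804 genes listed, 84 matched, comprising 79 enzyme rows and 5 rows of antisense RNAs. GCNT7, one of the enzyme rows, is a pseudogene in RefSeq. RNA was sequenced in MDA-MB-231, an established human line of triple-negative breast cancer, in 4 libraries. The labels give 2 libraries as wild type (WT) and 2 as a miR-3662 knockout (KO), and both groups are otherwise the same line with no treatment named. The title of the series names CRISPR interference and activation and its design text a sort on microRNA activity, so the exact nature of KO is uncertain. The sources used here do not say how the KO cells were obtained, whether they are 1 clone, or whether libraries of a group are separate cultures, so the p-values reflect the spread among these 4 samples and that spread may be technical.

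Glycosyltransferases transfer a sugar from a nucleotide-sugar donor to a growing chain, and each family makes a particular linkage. The GALNT enzymes start mucin-type O-glycans by placing N-acetylgalactosamine on serine or threonine, and GCNT enzymes branch the O-glycan core. The MGAT enzymes set the number of antennae on N-glycans, the B4GALT and B3GNT enzymes extend the antennae with galactose and N-acetylglucosamine, and the FUT, ST3GAL, ST6GAL, ST6GALNAC and ST8SIA enzymes cap or decorate them with fucose and sialic acid. Branched N-glycans, truncated sialylated O-glycans and fucosylated antennae are much studied at the surface of tumour cells.

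The table gives FPKM, fragments scaled by transcript length and by the library's mapped total, which sets genes of different length on 1 scale. FPKM summed to 504102 and 520527 in WT and to 528986 and 544650 in KO. In WT 11283 and 11344 genes reached 1 FPKM, and in KO 11720 and 11723, so both measures were higher in KO. The sums per step and the counts of KO values outside the WT range below use FPKM as deposited, without scaling. The read depth is unknown, so no counting error can be given. Genes that mark the line were present, with VIM at 1120 to 1321 FPKM and CD44 at 104 to 114. ANXA1 was at 279 and 241 FPKM in WT and 205 and 377 in KO. FN1 was lower, at 19.8 and 19.6 in WT and 32.1 and 11.3 in KO. The KO libraries thus differed from each other in ANXA1 and FN1. ESR1 was at most 0.01, and PGR was not listed by name, so the triple-negative label could not be fully checked. ERBB2 was listed at 8.55 to 11.4. The 3 epithelial markers differed among themselves, with CDH1 at most 0.03, EPCAM at 1.08 and 1.15 FPKM in WT and 0.34 and 0.05 in KO, and CLDN4 at 18.5 and 27.1 in WT and 30.1 and 34.3 in KO. COL1A1, a fibroblast marker, was at 1.11 and 1.45 in WT and 0.36 and 0.27 in KO. The leukocyte genes PTPRC and CD3E and the erythroid gene HBA1 were at 0 in every library. CD68, a lysosomal gene used as a macrophage marker, stood at 30.2 and 39.0 FPKM in WT and 67.7 and 117 in KO. The part of these markers in the results was not tested. The microRNA itself is not measured in these libraries, so the knockout could not be checked.

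A pair of sequences bears on the results below. The mature miR-3662 is shown because it is the RNA named in the KO labels, with its seed, bases 2 to 8, in capitals. The promoter of MGAT4B is shown because MGAT4B was the most abundant of the enzymes and rose in KO, and because its start region is shared with another gene. Its window runs 5′ to 3′ on the minus strand of GRCh38.p14 at chr5:179806817-179807116, with 250 bases before the transcription start in lower case and the 50 bases from the start in capitals. Both are from RefSeq (GRCh38.p14), in which 58 of the 84 members had a promoter entry.
hsa-miR-3662: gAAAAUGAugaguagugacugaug
MGAT4B promoter: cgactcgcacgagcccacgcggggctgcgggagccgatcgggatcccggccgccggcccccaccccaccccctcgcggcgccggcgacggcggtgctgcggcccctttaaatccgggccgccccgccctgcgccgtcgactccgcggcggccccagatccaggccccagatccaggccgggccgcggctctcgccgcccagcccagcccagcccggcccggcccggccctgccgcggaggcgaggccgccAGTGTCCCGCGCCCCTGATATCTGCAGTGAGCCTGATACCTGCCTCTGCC

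Of the 79 enzymes, 45 reached 1 FPKM in at least 2 libraries and were tested, and 40 of these reached it in all 4. B3GALT4 passed this limit only through the KO libraries and GALNT16 only through the WT libraries, so some difference between groups was built into their selection. In limma's test, adjusted over all 11786 tested genes, 10 enzymes (22.2%) differed at an adjusted p under 0.05, beside 27.0% of all tested genes. The 7 that rose in KO were MGAT4B, GALNT18, GALNT5, B3GALT4, GALNT7, FUT11 and B4GALT7, or 15.6% of the tested enzymes beside 16.2% of all genes. The 3 that fell were ST6GALNAC4, GALNT16 and ST3GAL1, or 6.67% beside 10.8%. These shares lay below those of all genes in both directions, and the enzymes are therefore described one by one and not as a group that moved. The counts by step below are to be read beside the same shares of all genes. After the libraries were scaled by the median of their ratios, which moved the median over all genes from 0.074 to −0.021 on the log2 scale, 12 enzymes passed. Of these 7 rose and 5 fell, B4GALT3 and B4GALT5 being added among those that fell, where 27.5% of all genes passed, 12.0% up and 15.5% down. With no lower limit on FPKM 78 enzymes entered the test and only MGAT4B, of the 10, and FUT2 passed, and 525 of all genes did. In bulk RNA, fewer cells that express a gene and less of its RNA per cell cannot be told apart.

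Both KO values lay outside the WT range in 36 of the 45 tested enzymes (80.0%), beside 68.0% of all tested genes. KO lay above WT in 26 and below it in 10. The median difference between KO and WT, on the log2(FPKM + 1) scale, was 0.24 over the tested enzymes and 0.074 over all tested genes. All differences below are log2 differences on this scale, KO minus WT, with the standard error (SE) or the 95% confidence interval, and they understate the change of genes with low values.

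**Figure D1:**
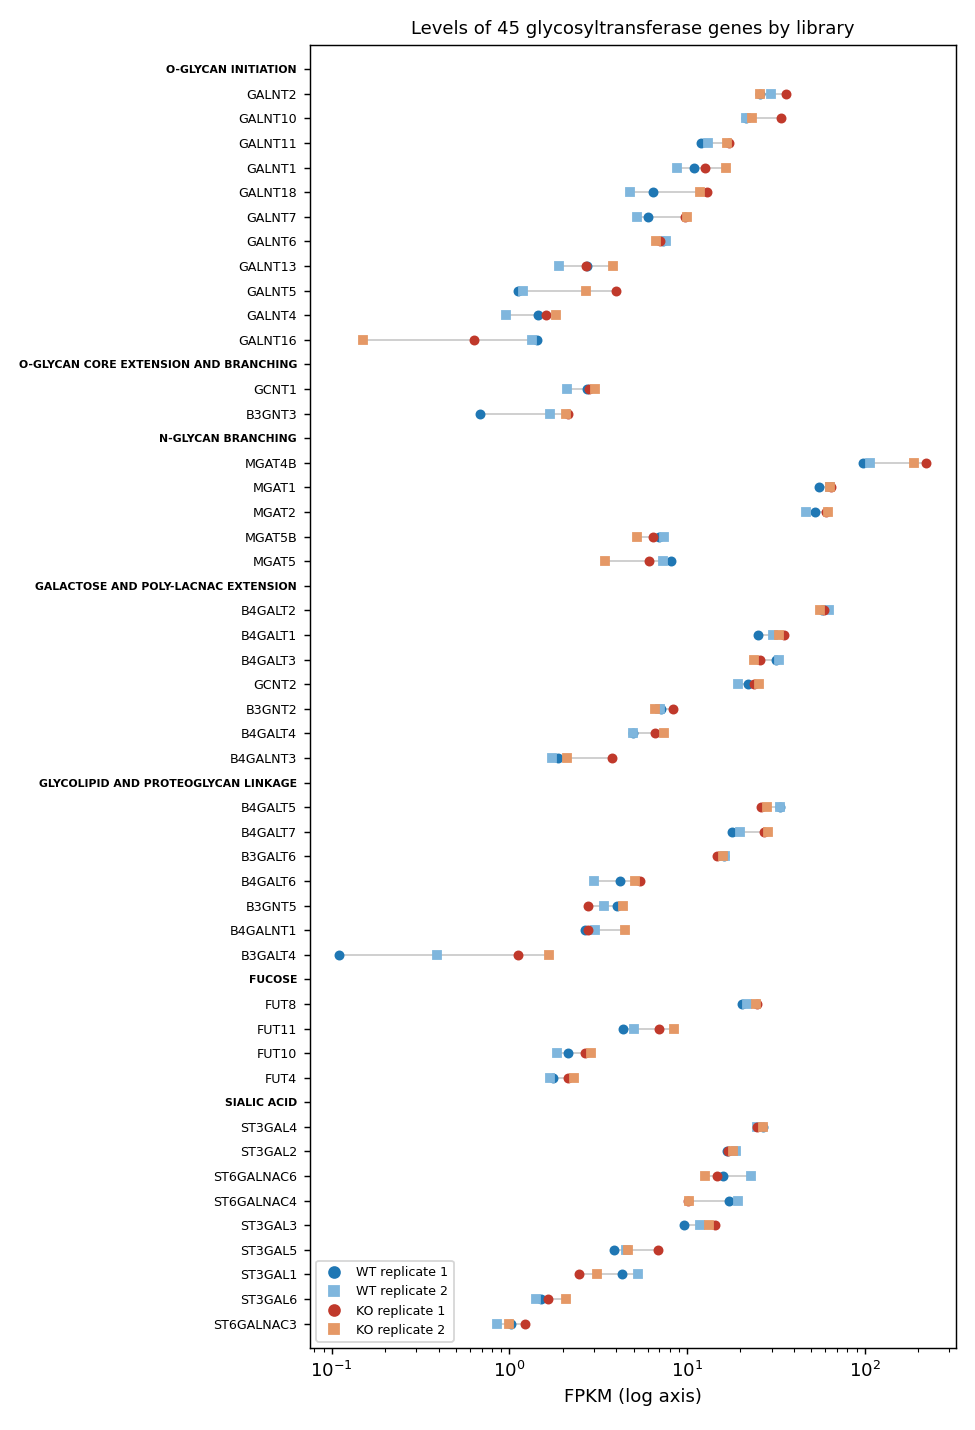
FPKM on a log axis of the tested enzymes in each of the 2 WT and 2 KO libraries, ordered by step. MGAT4B stands highest, at 97.5 and 107 FPKM in WT and 222 and 189 in KO, while GALNT16 and B3GALT4 show the widest spread between libraries on this axis.

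The enzymes of each step were also summed, as a description with no test. The sum over all enzymes was 681 and 717 FPKM in WT and 885 and 830 in KO, 1.23 times higher in KO. The N-glycan branching step went from 221 and 232 to 360 and 324 FPKM, and MGAT4B alone made up 44.1% and 46.1% of that sum in WT and 61.6% and 58.2% in KO. The O-glycan initiation step went from 97.1 and 96.4 to 140 and 121 FPKM. These 2 steps carried most of the rise in the total. The galactose and poly-N-acetyllactosamine step, at 153 and 163 FPKM in WT and 167 and 157 in KO, overlapped between groups. The sialic acid step was 98.2 and 111 FPKM in WT and 94.98 and 93.83 in KO. O-glycan core extension and branching, the smallest sum, went from 3.52 and 3.98 to 5.95 and 6.35 FPKM. That was 1.64 times higher in KO, where N-glycan branching was 1.51 times higher. The fucose step went from 29.25 and 30.95 to 37.19 and 38.93 FPKM, and the glycolipid and proteoglycan step from 78.57 and 79.32 to 80.03 and 88.33.

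**Figure D2:**
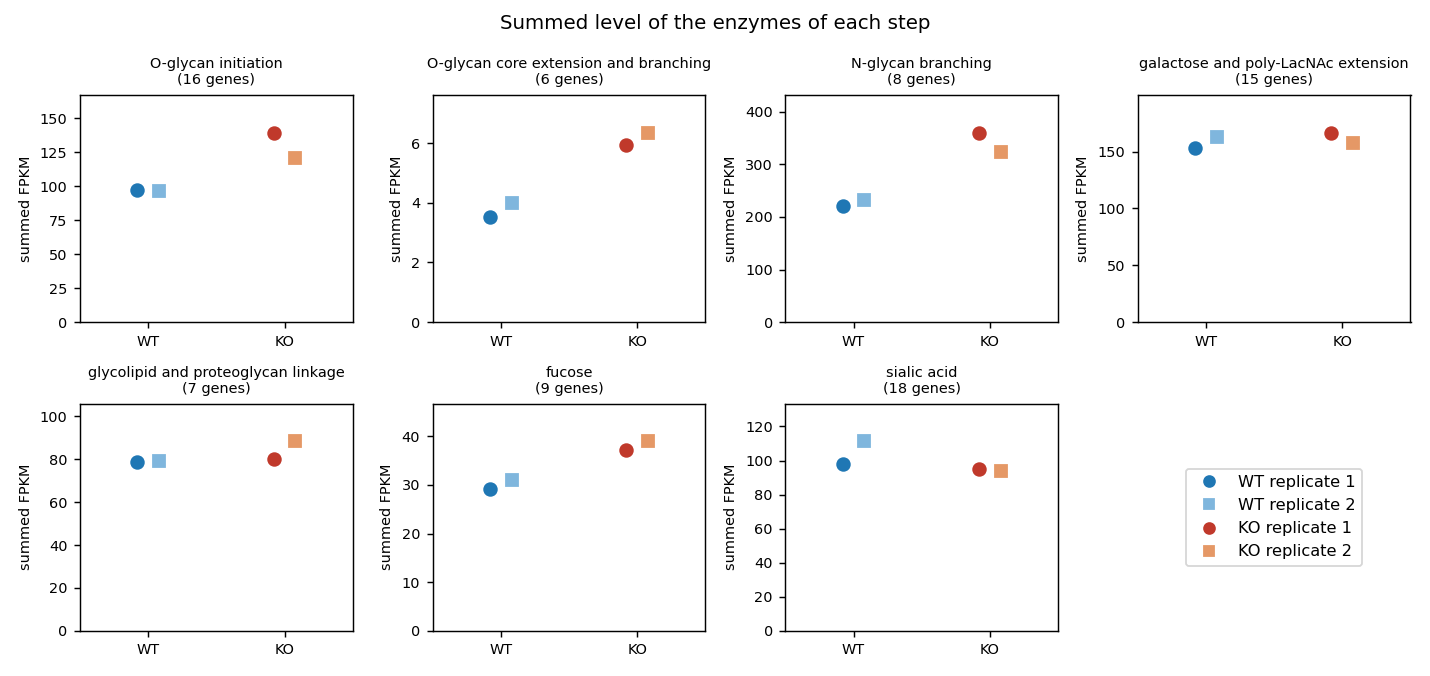
Summed FPKM of the enzymes of each step in the 4 libraries, with axes starting at 0. Each panel has its own axis. N-glycan branching shows the widest gap in FPKM, from 221 and 232 in WT to 360 and 324 in KO. The ratio of KO to WT is highest for O-glycan core extension and branching, at 1.64, and the galactose step overlaps between the groups.

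O-glycan initiation is carried out by the GALNT enzymes, of which 11 of 16 were tested, 3 rose and 1 fell, with a median difference of 0.38. Over all tested genes 16.2% rose and 10.8% fell, with a median of 0.074. GALNT18 (chr11:11270876-11622005, minus strand) was at 6.40 and 4.77 FPKM in WT and at 12.97 and 11.86 in KO. The groups did not overlap, and the difference was 1.04 ± 0.17 (SE, adjusted p = 0.00606). GALNT5 (chr2:157257598-157314211, plus strand) was listed at 1.12 and 1.19 FPKM in WT against 3.97 and 2.69 in KO. Its mean FPKM was 2.88 times higher in KO, a difference of 0.99 ± 0.18 (SE, adjusted p = 0.00834). GALNT7, an enzyme that acts mainly on peptides already carrying N-acetylgalactosamine (chr4:173168753-173323967, plus strand), was at 6.04 and 5.23 FPKM in WT and 9.73 and 10.04 in KO. It rose by 0.72 ± 0.15 (SE, adjusted p = 0.0127), a call lost without the second WT, the first KO or the second KO library (adjusted p up to 0.0731). GALNT16 (chr14:69259277-69357033, plus strand) went the other way, from 1.44 and 1.35 FPKM in WT to 0.63 and 0.15 in KO. The KO values also differed from each other at this low level. Only the WT libraries reached the limit for testing, so some difference was built into its selection. GALNT16 fell by 0.81 ± 0.19 (SE, adjusted p = 0.0184), and the call was lost without either WT library or without the second KO library, at adjusted p up to 0.0955.

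The more abundant GALNT enzymes did not pass the test. GALNT2, a widely expressed initiating enzyme, was at 25.8 and 29.8 FPKM in WT and 36.2 and 25.9 in KO, so that 1 KO value lay inside the WT range (0.14, 95% interval −0.27 to 0.54, adjusted p = 0.592). GALNT10 was at 21.5 and 21.4 FPKM in WT and 33.9 and 23.3 in KO (0.38, adjusted p = 0.154), and it passed without the second KO library (adjusted p = 0.0435). The 2 KO libraries thus differed from each other in both of these enzymes, the first being the higher. GALNT1, the other broadly expressed family member, was at 11 and 8.75 FPKM in WT and 12.6 and 16.6 in KO (0.52, adjusted p = 0.0678). GALNT11 was at 12.0 and 13.1 FPKM in WT and 17.3 and 16.7 in KO (0.41, adjusted p = 0.0561). The groups did not overlap for GALNT1 or GALNT11, and GALNT11 passed where the limit for testing was 5 FPKM (adjusted p = 0.0466). GALNT6 was at 7.28 and 7.60 FPKM in WT and 7.05 and 6.65 in KO (−0.10, adjusted p = 0.607). GALNT13 was at 2.74 and 1.90 against 2.70 and 3.82 (0.36, adjusted p = 0.204), and GALNT4 at 1.45 and 0.96 against 1.60 and 1.82 (0.31, adjusted p = 0.195). GALNT4 shares 93.2% of its exon bases with the read-through gene POC1B-GALNT4, so its value is uncertain. Of the 5 untested members, GALNT3 was at 0.20 and 0.16 FPKM in WT and 0.47 and 0.61 in KO, and GALNT8 was listed at 0 in every library.

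O-glycan core extension starts with core 1, made by C1GALT1 with its chaperone C1GALT1C1, which the naming rule does not include. C1GALT1 was at 7.45 and 5.93 FPKM in WT and 9.03 and 10.8 in KO (0.50, adjusted p = 0.0591), and C1GALT1C1 rose from 7.72 and 7.45 to 12.2 and 11.9 FPKM (0.60, adjusted p = 0.0173). Of the 6 members that extend or branch the core, 2 were tested and none passed. GCNT1, which makes the core 2 branch, was at 2.73 and 2.10 FPKM in WT and 2.82 and 3.04 in KO (0.21, adjusted p = 0.354). B3GNT3, which extends core 1, was at 0.68 and 1.69 FPKM in WT and 2.14 and 2.08 in KO (0.55, adjusted p = 0.103). The spread between the 2 WT libraries was wide for B3GNT3, and it passed without the second WT library (adjusted p = 0.0206). GCNT3, a core 2 and core 4 enzyme of mucin-secreting cells, lay just below the limit for testing, at 0.05 and 0.10 FPKM in WT and 0.71 and 1.10 in KO. B3GNT6, GCNT4 and GCNT7 were low in every library.

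N-glycan branching had 5 of its 8 members tested, and MGAT4B was the only 1 that passed. MGAT4B, which adds the β1,4 branch to the α1,3 arm of the N-glycan core (chr5:179797597-179806952, minus strand), was listed at 97.5 and 107 FPKM in WT and at 222 and 189 in KO. Its mean was 102 ± 6.72 FPKM in WT and 205 ± 23.5 in KO (SD, n = 2 each), and the lowest KO value was well above the highest WT value. The difference was 1.00 ± 0.12 (SE, 95% interval 0.71 to 1.28, adjusted p = 0.0026), and it stayed between 0.88 and 1.11 when any 1 library was left out. MGAT4B shares 105 exon bases, 1.91% of its exon length, with SQSTM1, an autophagy receptor gene on the other strand, and 242 bases of its promoter window with that of SQSTM1. SQSTM1 rose from 93.4 and 121 FPKM to 411 and 435 (1.99, adjusted p = 0.000434). No source used here states whether fragments were assigned by strand, and the part of SQSTM1 reads in the MGAT4B value was not tested.

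The enzymes before and after MGAT4B in the branching pathway did not pass. MGAT1, which commits a glycan to the hybrid and complex types, was at 55.5 and 63.5 FPKM in WT and 64.7 and 63.8 in KO (0.11, 95% interval −0.17 to 0.39, adjusted p = 0.509). MGAT2, which opens the branch on the other arm, was at 52.4 and 46.7 FPKM in WT and 60.5 and 62.4 in KO (0.31, adjusted p = 0.0927). MGAT5, which adds the β1,6 branch that is much studied in tumours, was at 8.09 and 7.37 FPKM in WT and 6.12 and 3.44 in KO. Both KO values lay below WT, at −0.63 ± 0.23 (SE, adjusted p = 0.0733), with the second KO library the lower. MGAT5 passed without the first KO library. The ratio of MGAT4B to MGAT5 FPKM was 12.0 and 14.5 in WT and 36.3 and 54.8 in KO. MGAT5B, its homologue, was at 7 and 7.39 FPKM in WT and 6.44 and 5.22 in KO (−0.27, adjusted p = 0.232). MGAT4A, the other β1,4-branching enzyme, was below the limit for testing, at 0.43 and 0.23 FPKM in WT and 0.67 and 0.69 in KO, and MGAT3 and MGAT4C were near 0.

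Galactose and poly-N-acetyllactosamine extension had 7 of 15 members tested, of which none passed. B4GALT2 and B4GALT1 add β1,4-galactose to the antennae, and B4GALT2 was at 57.3 and 63.3 FPKM in WT and 59.1 and 56.3 in KO (−0.06, 95% interval −0.33 to 0.21, adjusted p = 0.725). B4GALT1 was at 25.3 and 30.5 FPKM in WT and 35.2 and 33.0 in KO (0.29, adjusted p = 0.156). B4GALT3, with a similar activity, was at 31.9 and 33.2 FPKM in WT and 25.9 and 23.7 in KO (−0.38, adjusted p = 0.0567). B4GALT1 thus lay above WT in KO and B4GALT3 below it, and the summed B4GALT family was 175 and 188 FPKM in WT and 186 and 182 in KO. B4GALT3 shares 28.7% of its exon bases with PPOX on the other strand, which went from 2.14 and 3.02 to 6.89 and 7.41 FPKM. B4GALT4 was at 4.99 and 4.98 FPKM in WT and 6.62 and 7.41 in KO (0.42, adjusted p = 0.0682). B3GNT2, the main poly-N-acetyllactosamine synthase, was at 7.18 and 7.06 FPKM in WT and 8.36 and 6.57 in KO (0.05, adjusted p = 0.831), and GCNT2, which branches those chains into the blood group I form, at 22.1 and 19.3 against 23.8 and 25.5 (0.24, adjusted p = 0.207). B4GALNT3, which makes the LacdiNAc group, was at 1.88 and 1.73 FPKM in WT and 3.78 and 2.12 in KO (0.46, adjusted p = 0.140).

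Glycolipid and proteoglycan linkage enzymes were all tested, 7 of 7, and 2 rose. B4GALT7, which adds the innermost galactose of the proteoglycan linkage (chr5:177600100-177610347, plus strand), was at 18.0 and 19.8 FPKM in WT and 27.3 and 28.5 in KO. It was 1.47 times higher in KO, by 0.54 ± 0.13 (SE, adjusted p = 0.0203), but failed the test when any 1 of the 4 libraries was left out (adjusted p 0.0577 to 0.109). B3GALT6, which adds the next galactose of the same linkage, was at 16.1 and 16.4 FPKM in WT and 14.7 and 16.0 in KO (−0.08, adjusted p = 0.686). B3GALT4, the GM1 ganglioside synthase (chr6:33277132-33284832, plus strand), was at 0.11 and 0.39 FPKM in WT and 1.12 and 1.67 in KO. B3GALT4 reached the limit for testing only in the KO libraries, so some difference was built into its selection. It rose by 0.94 ± 0.18 (SE, adjusted p = 0.00996), at a level close to the limit for testing, and missed the threshold without the second KO library (adjusted p = 0.0568). B4GALNT1, which makes GM2 and GD2, was at 2.67 and 3.03 FPKM in WT and 2.76 and 4.48 in KO (0.24, adjusted p = 0.403), and 26.7% of its exon bases overlap SLC26A10. The lactosylceramide synthases lay in opposite directions, B4GALT5 at 33.4 and 33.3 FPKM in WT and 26.0 and 28.2 in KO (−0.29, adjusted p = 0.112), and B4GALT6 at 4.21 and 3.01 against 5.42 and 5.13 (0.46, adjusted p = 0.0867). B3GNT5, which begins the lacto-series glycolipids, was at 4.06 and 3.39 FPKM in WT and 2.78 and 4.36 in KO (−0.07, adjusted p = 0.826).

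Fucosyltransferases had 4 of 9 members tested, and 1 rose. FUT8, the core α1,6-fucosyltransferase of N-glycans, made up 70.1% and 70.5% of the summed fucosyltransferase FPKM in WT and 66.6% and 62.7% in KO. FUT8 was at 20.5 and 21.8 FPKM in WT and 24.8 and 24.4 in KO (0.21, 95% interval −0.08 to 0.50, adjusted p = 0.243). FUT11 (chr10:73772291-73780251, plus strand) was at 4.39 and 5.01 FPKM in WT and 6.92 and 8.45 in KO. It rose by 0.60 ± 0.16 (SE, adjusted p = 0.0295), and failed the test when any 1 library was left out (adjusted p 0.0564 to 0.174). FUT10, from the same subfamily, was at 2.15 and 1.85 FPKM in WT and 2.67 and 2.90 in KO (0.34, adjusted p = 0.126). FUT4, the α1,3-fucosyltransferase that can make the Lewis x group, was at 1.76 and 1.69 against 2.13 and 2.32 (0.24, adjusted p = 0.233). The α1,2-fucosyltransferases were below the limit for testing, FUT1 at 0.37 and 0.48 FPKM in WT and 0.39 and 0.49 in KO, and FUT2 at 0.08 and 0.09 against 0.29 and 0.31. FUT3, FUT5 and FUT6, near-identical copies among which reads can be shared, were at most 0.04 FPKM.

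Sialyltransferases had 9 of 18 members tested, of which none rose and 2 fell, with a median difference near 0. ST6GALNAC4, which adds α2,6-sialic acid to the sialylated core 1 O-glycan (chr9:127907886-127917038, minus strand), was at 17.3 and 19.5 FPKM in WT and at 10.1 and 10.2 in KO. The libraries of each group lay close together, and ST6GALNAC4 fell by 0.79 ± 0.14 (SE, 95% interval −1.11 to −0.48, adjusted p = 0.00728) and passed with any 1 library left out. ST3GAL1, which adds α2,3-sialic acid to core 1 O-glycans (chr8:133454848-133571940, minus strand), was at 4.31 and 5.28 FPKM in WT and 2.46 and 3.11 in KO. It fell by 0.61 ± 0.17 (SE, adjusted p = 0.0321), and failed the test when any 1 library was left out (adjusted p 0.0539 to 0.155). The ratio of ST3GAL1 to GCNT1, which act on the same core 1 substrate, was 1.58 and 2.51 in WT and 0.872 and 1.02 in KO. ST6GALNAC6, 2.5 kb from ST6GALNAC4 on the same strand, was at 15.9 and 22.8 FPKM in WT and 14.7 and 12.7 in KO (−0.45, adjusted p = 0.109).

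The other sialyltransferases did not pass. ST3GAL4, which caps N-glycan antennae, was at 26.9 and 24.9 FPKM in WT and 24.9 and 26.7 in KO (−0.0044, 95% interval −0.30 to 0.29, adjusted p = 0.983). ST3GAL2 was at 16.8 and 18.9 FPKM in WT and 17.1 and 18.2 in KO (−0.01, 95% interval −0.33 to 0.30, adjusted p = 0.956). These abundant enzymes overlapped between the groups. ST3GAL3 was at 9.64 and 11.9 FPKM in WT and 14.3 and 13.4 in KO (0.34, adjusted p = 0.130). ST3GAL5, the GM3 synthase, was at 3.90 and 4.55 against 6.85 and 4.68 (0.36, adjusted p = 0.196), and ST3GAL6 at 1.51 and 1.42 against 1.65 and 2.08 (0.21, adjusted p = 0.318). ST6GALNAC3 was at 1.02 and 0.85 FPKM in WT and 1.23 and 0.99 in KO (0.12, adjusted p = 0.551). Summed, the ST3GAL family was at 63.0 and 66.9 FPKM in WT and 67.2 and 68.1 in KO, and the ST6GALNAC family at 34.3 and 43.4 against 26.3 and 24.2. ST6GAL1, the α2,6-sialyltransferase of N-glycans, was below the limit for testing at 0.19 and 0.23 FPKM in WT and 0.52 and 0.83 in KO, and the polysialyltransferase ST8SIA4 was at 0.45 and 0.47 against 0.57 and 0.37.

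**Figure D3:**
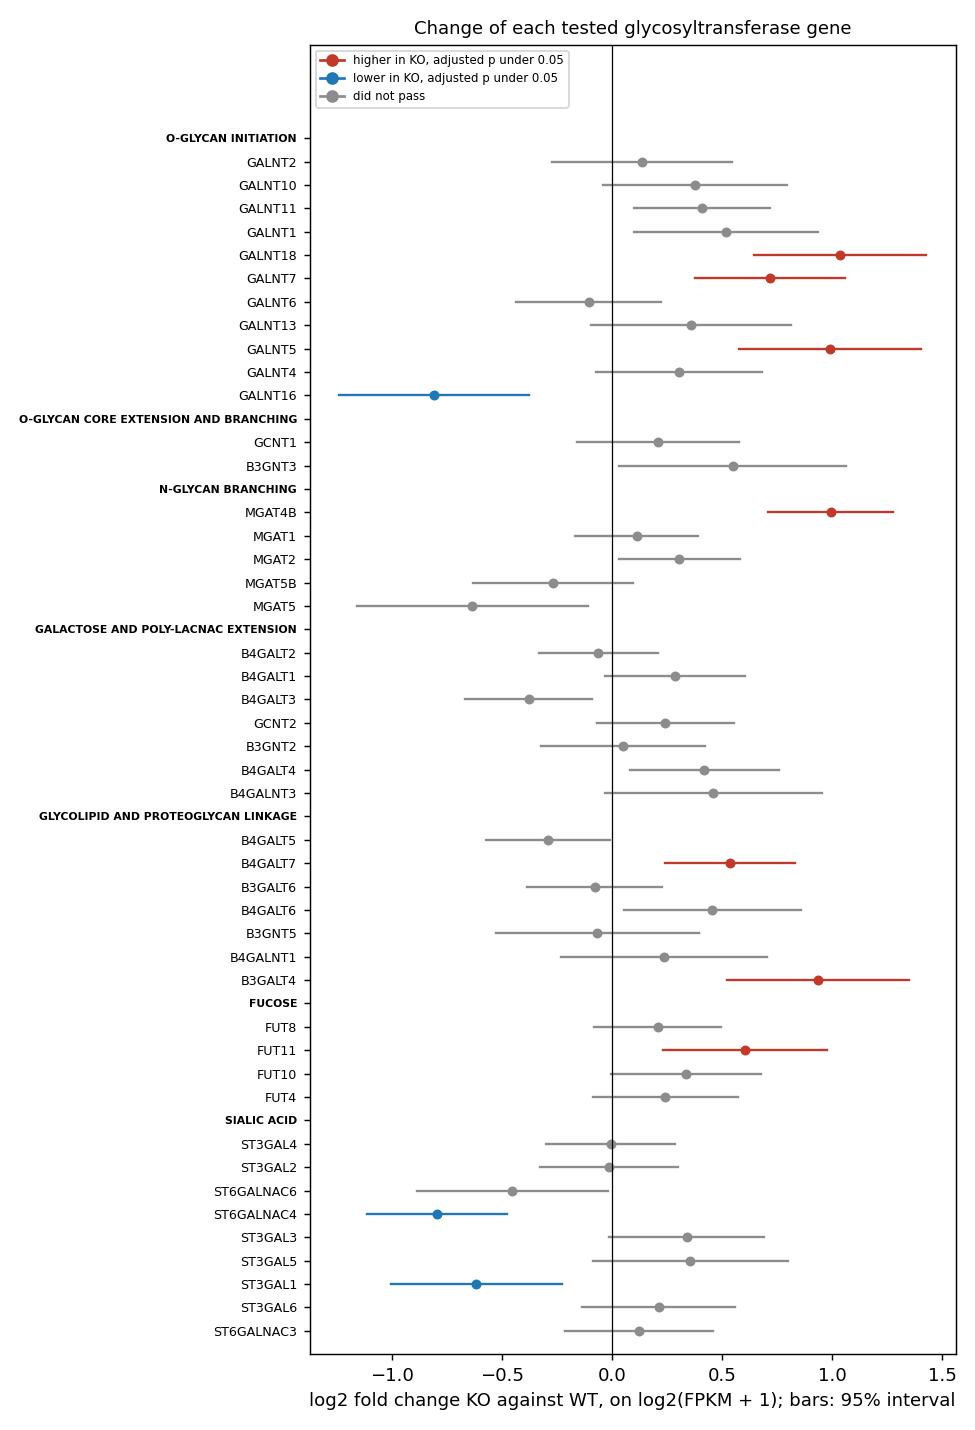
Difference in log2(FPKM + 1), KO minus WT, of the 45 tested enzymes by step, with 95% confidence intervals and colours for the call. The 7 enzymes that rose and the 3 that fell lie between −0.81 and 1.04, and the 35 others between −0.63 and 0.55.

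The 35 tested enzymes that did not pass had differences between −0.63 and 0.55, 24 above 0 and 11 below. Of the 34 untested enzymes, 16 were at most 0.1 FPKM in every library, and 13 of the 34 had both KO values above both WT values, where 22.6% of all untested genes did. Just outside the limit, by their second highest value, were B3GNT9 at 0.89 FPKM, GCNT3 at 0.71 and MGAT4A at 0.67. Just inside were ST6GALNAC3 at 1.02, B3GALT4 at 1.12 and GALNT16 at 1.35. Of these low genes, B3GALT5, which makes type 1 chains, was at 0.60 and 0.35 FPKM in WT and 0.67 and 0.59 in KO, and B4GALNT4 at 0.42 and 0.48 against 1.59 and 0.61. The 5 antisense rows also stayed below the limit for testing. ST3GAL4-AS1 was the highest of them, at 0.50 and 0.66 FPKM in WT and 0.78 and 1.24 in KO. FUT8-AS1, which overlaps 12.3% of the exon bases of FUT8, was at 0.38 and 0.53 against 0.86 and 0.77, and reads of such pairs cannot be told apart without strand.

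The surroundings of the called enzymes in the genome (GRCh38, GENCODE 29) were examined within 1 Mb on either side, since genes in a row can change together. Around MGAT4B 13 genes were tested, of which 7 rose and none fell, with a median difference of 0.47, where 16.2% of all tested genes rose and 10.8% fell. SQSTM1 and GFPT2, the hexosamine pathway enzyme that rose by 1.36 (adjusted p = 0.00401), were among them, and MGAT1 lay in the same window with the values above. ST6GALNAC4 had 44 tested neighbours, of which 13 fell and 3 rose, with a median of −0.34. ENG, an endothelial co-receptor gene, fell by 2.20 there (adjusted p = 0.000434), while the endothelial markers PECAM1 and CDH5 were at most 0.29 and 0.06 FPKM. FUT11 had 23 tested neighbours (4 rose and 1 fell), GALNT18 12 (4 and 1), B3GALT4 28 (7 and 6) and B4GALT7 26 (5 and 2). The share that rose lay near that of all genes around FUT11 and B4GALT7 and above it around GALNT18 and B3GALT4. Of these windows only that of B3GALT4 had a share that fell above that of all genes. The counts are small. ST3GAL1, which fell, had 5 tested neighbours, of which 2 rose and none fell, with a median of 0.40, and GALNT7 had 4, of which 1 rose. GALNT5 had 2 tested neighbours, neither passing, and GALNT16 had 11, of which 1 fell. B4GALT7 and MGAT4B lie on the same chromosome with 2187.2 kb between them.

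**Figure D4:**
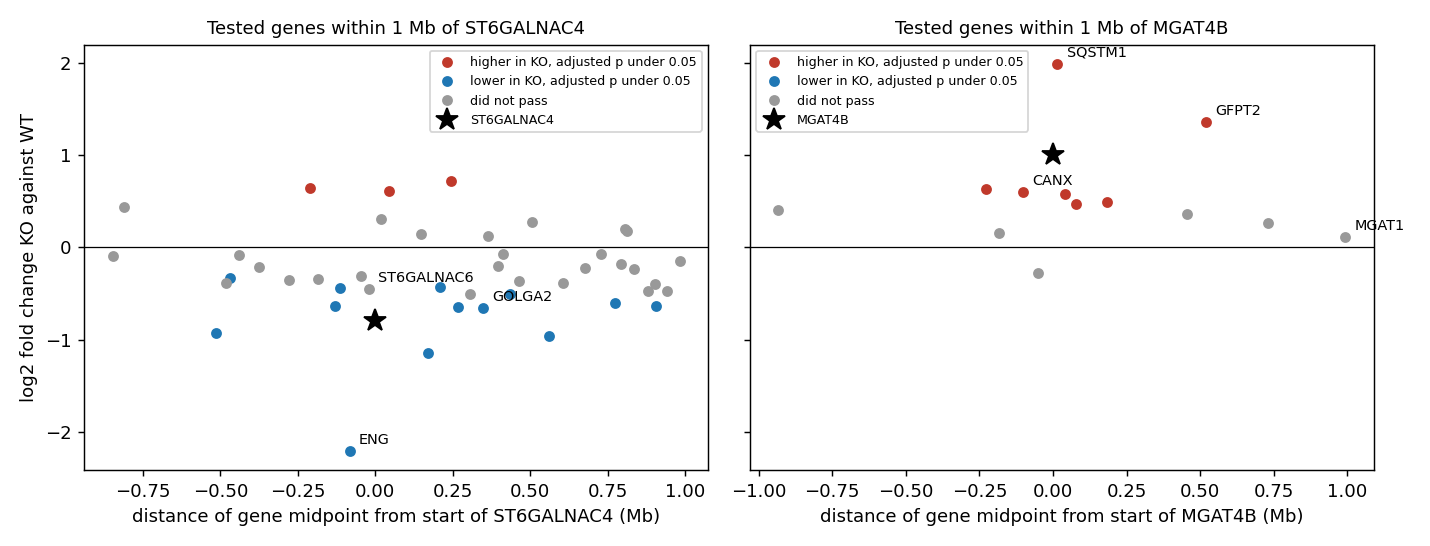
Difference in log2(FPKM + 1), KO minus WT, of tested genes within 1 Mb of MGAT4B and of ST6GALNAC4, against distance from the start of each in Mb. Around MGAT4B 7 of 13 genes rose and none fell, and around ST6GALNAC4 13 of 44 fell and 3 rose.

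Matches to the seed of miR-3662 were sought in the longest GENCODE 29 3′ UTR of each gene, as the 7 bases TCATTTT that pair with bases 2 to 8. A match is a description of the sequence and not a shown target. Of the tested enzymes 20 of 45 (44.4%) had at least 1 match, beside 3634 of the 10867 tested genes for which a 3′ UTR was found (33.4%). Enzymes with a match had longer UTRs, with a median of 3215 bases against 1591 without. The median difference was 0.23 in enzymes with a match and 0.34 in those without, beside 0.09 and 0.06 over all tested genes with a 3′ UTR. MGAT4B, GALNT18, GALNT7, GALNT16, FUT11, B3GALT4, B4GALT7 and ST6GALNAC4 had no match. Among the 10 called enzymes GALNT5 had 2 matches and ST3GAL1 had 1, and these enzymes moved in opposite directions. Of the 10867 tested genes with a 3′ UTR, 814 of the 3634 with a match passed the test and 2157 of the rest did. A lower share of calls among genes with a match was thus seen over all these genes as well. The matches in GALNT5, which rose, and in MGAT5, which did not pass and whose KO values lay below WT, are shown with the 7 bases in capitals. They are on the plus strand of GRCh38 at chr2:157312035-157312057 and chr2:157312626-157312648 for GALNT5 and at chr2:134451888-134451910 for MGAT5.
GALNT5 site 1: atttcagtTCATTTTgtgctttt
GALNT5 site 2: ctttgcatTCATTTTggtaagaa
MGAT5 site: gatgctttTCATTTTtgtttgga

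Genes that work beside these enzymes were taken from lists drawn up for the same pathway, with earlier results of these data known. Of 93 tested 25 rose and 6 fell, where 16.2% and 10.8% of all genes did. The median of the 93 was 0.19. Among genes that supply or remove sialic acid, 3 of 10 rose and 1 fell. SLC17A5, the lysosomal exporter of sialic acid, rose from 6.55 and 7.71 FPKM to 18.2 and 20.5 (1.33, adjusted p = 0.002), GNE, the entry enzyme of sialic acid synthesis, rose from 9.64 and 10.9 to 14.5 and 14.2 (0.45, adjusted p = 0.0474), and the esterase SIAE rose by 0.66 (adjusted p = 0.0292). NANS, a later enzyme of the same synthesis, fell from 126 and 131 FPKM to 99.7 and 89.9 (−0.44, adjusted p = 0.0247). CMAS, which activates sialic acid (0.37, adjusted p = 0.092), the CMP-sialic acid transporter SLC35A1 (−0.02, adjusted p = 0.930) and the sialidase NEU1 (0.36, adjusted p = 0.112) did not pass. Among genes that supply or remove fucose, 2 of 7 rose and 1 fell. TSTA3, which completes GDP-fucose synthesis, rose from 94.2 and 89.2 FPKM to 181 and 185 (0.99, adjusted p = 0.00174). The fucosidases parted, FUCA1 rising by 0.73 (adjusted p = 0.0330) and FUCA2 falling from 65.6 and 61.0 to 39.5 and 39.4 FPKM (−0.67, adjusted p = 0.00712). The GDP-fucose transporter SLC35C1 did not pass (0.17, adjusted p = 0.398).

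Among genes of nucleotide sugar synthesis and transport, 7 of 19 rose and 2 fell. For this list and those that follow, the shares over all tested genes were 16.2% up and 10.8% down. GFPT2 rose from 11.04 and 14.18 FPKM to 28.4 and 39.6, GALT and GALK1 of galactose use rose by 0.93 and 0.85, and UGDH, which makes UDP-glucuronic acid, by 0.79. SLC35B4, GMPPA and MPI rose by 0.60, 0.49 and 0.67. UAP1, which makes UDP-N-acetylglucosamine, fell from 99.2 and 75.8 to 48.3 and 67.0 FPKM (−0.60, adjusted p = 0.0498), and PMM2 fell by 0.49. The UDP-galactose transporter SLC35A2 did not pass (−0.01, adjusted p = 0.956). Of the other glycosyltransferases 6 of 20 rose and none fell before scaling. Those that rose were LFNG, which elongates O-fucose on Notch (1.83, adjusted p = 0.00808), B3GLCT (0.90, adjusted p = 0.00614), UGCG, the glucosylceramide synthase (0.55, adjusted p = 0.0273), B4GAT1 (0.52, adjusted p = 0.0483), POMGNT1 (0.49) and OGT (0.48). In N-glycan trimming 1 of 9 passed, MOGS, the glucosidase that starts trimming, which fell from 37.1 and 37.3 FPKM to 26.8 and 20.4 (−0.65, adjusted p = 0.0197), and MAN2A1 did not (0.22, adjusted p = 0.480).

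Golgi homeostasis genes included 3 that rose of 22, GOLGB1 by 0.91, GOLPH3L by 0.65 and GORASP2 by 0.40, and 1 that fell, GOLGA2, a Golgi matrix protein gene, from 21.4 and 25.0 FPKM to 15.5 and 13.3 (−0.66, adjusted p = 0.0169). The galectins bind galactose-containing glycans, and 3 of 4 tested members of that list rose. Both lists stand beside 16.2% of all tested genes that rose and 10.8% that fell. LGALS3 went from 44.9 and 61.4 FPKM to 227 and 193 (1.98, adjusted p = 0.000794), LGALS8 from 6.40 and 5.49 to 18.8 and 18.7 (1.51, adjusted p = 0.00116) and LGALS3BP, a galectin-binding glycoprotein, from 18.7 and 23.2 to 85.1 and 59.8 (1.73, adjusted p = 0.00182). LGALS1 was at 591 and 844 FPKM in WT and 736 and 855 in KO (0.17, adjusted p = 0.485). Of the 31 called genes of these lists, 10 passed with any 1 library left out and 21 missed the threshold in at least 1 such fit. After scaling B4GAT1, FUCA1, GMPPA, GNE, GORASP2, MPI, OGT and UGCG no longer passed. In that fit B3GNTL1 (−0.54), POFUT1 (−0.41) and POMT1 (−0.50), of the other glycosyltransferases, passed as lower in KO. PRKCSH (−0.39) of N-glycan trimming and VPS53 (−0.51) of Golgi homeostasis did so too. With a pseudocount of 0.1 FPKM, B4GAT1 and UAP1 missed the threshold. With no trend for the variance B4GAT1, UAP1 and GORASP2 missed it. With the replicate number as a block B4GAT1, GMPPA, GNE, GORASP2 and OGT missed it.

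**Figure D5:**
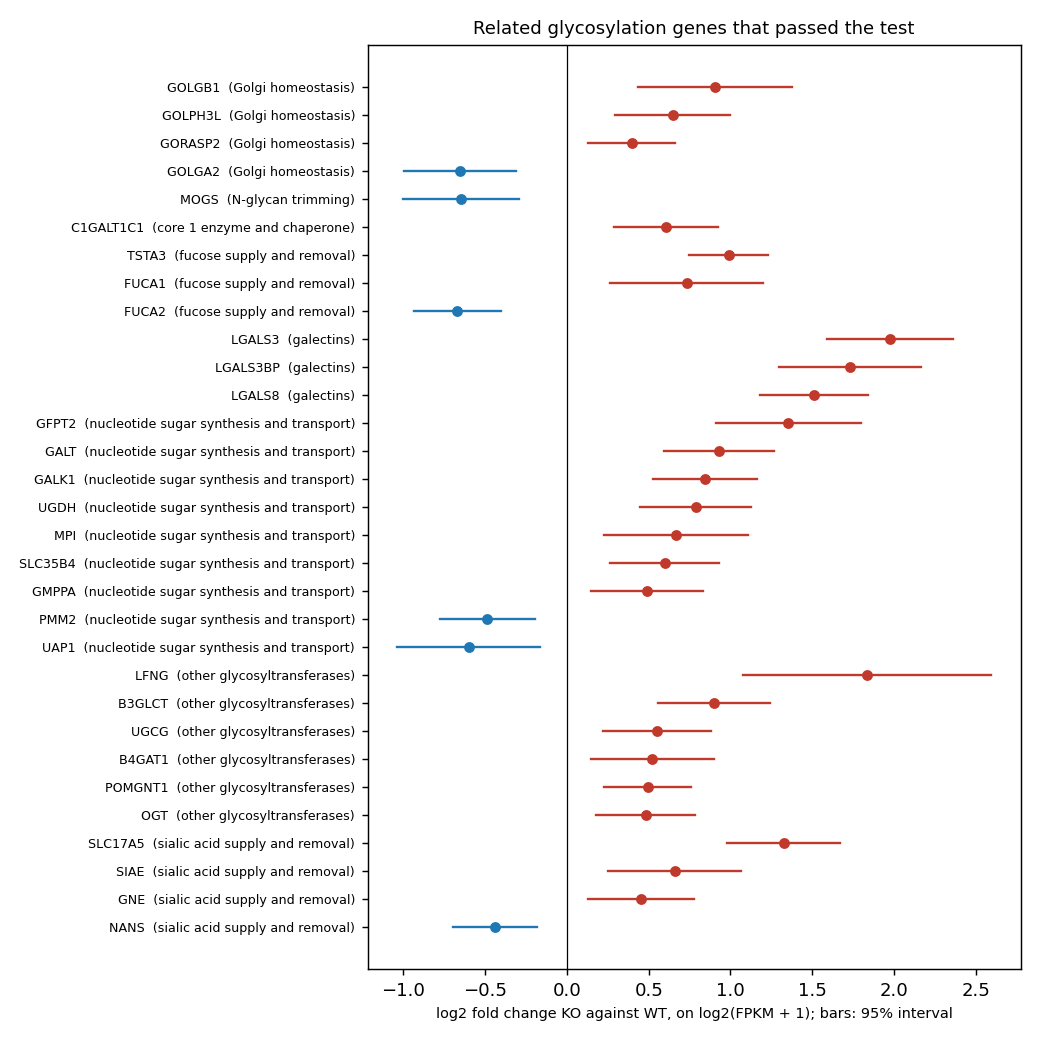
Difference in log2(FPKM + 1), KO minus WT, of the 31 genes of the 8 related lists that passed the test, with 95% confidence intervals. LGALS3 stands highest at 1.98, followed by LFNG at 1.83 and LGALS3BP at 1.73, and FUCA2 stands lowest at −0.67.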

How the data were processed

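RNA of 2 WT and 2 KO libraries was prepared with Trizol and an Illumina TruSeq RNA kit, per the labels' protocols. The authors deposited 1 FPKM value per gene and library with 2 decimals, per the file headers. HISAT, StringTie, Cufflinks, GATK and hg38 are named, without roles, in the submitters' processing notes, and no source used here gives the depth. Gene identifiers were used to restore 11 symbols stored as dates. A gene was tested if 2 or more libraries reached 1 FPKM. limma 3.58.1 (R 4.3.3) was run on log2(FPKM + 1) with a trend for the variance, all 4 libraries and no covariate, and p-values were adjusted by Benjamini-Hochberg across the genes tested, with 0.05 as the threshold. The fit was also run on simulated data with independent noise and few changed genes, which does not bear on how the real libraries vary. Enzymes called, or at a mean of at least 1 FPKM in either group, are named with values, as are called genes of the related lists. Positions and 3′ UTRs came from GENCODE 29 (GRCh38). Alternatives were another pseudocount, other limits, scaling, no trend, a replicate block and leaving out each library. The members and lists were chosen with earlier results of these data known.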

Additional observations from a re-analysis of the deposited data

How the results depend on the processing

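None of the 10 called enzymes changed direction under an alternative, which was largely fixed in advance. The limits, the trend and the block leave the difference as it is. Leaving out 1 library cannot turn the sign where the groups do not overlap, as held for all 10. Among enzymes that did not pass, the sign of B3GNT2 turned after scaling (−0.04) and without the first KO library, and that of B3GNT5, B4GALNT1, B4GALT2, GALNT2, ST3GAL2 and ST3GAL4 turned without 1 of the libraries. The test called 3184 genes and 10 enzymes. With no lower limit on FPKM it called 525 genes and 2 enzymes (MGAT4B and FUT2), and the cause was not tested. Leaving out 1 library, which leaves a group with a single sample assumed to vary like the other group, gave 1402 to 1902 genes and 5 to 7 enzymes. MGAT4B, GALNT18, GALNT5 and ST6GALNAC4 passed in each of those fits. Other alternatives kept the 10 enzymes, apart from those below the limit of 5 FPKM, where 29 enzymes were tested and 7 passed. Scaling moved the calls over all genes from 1906 up and 1278 down to 1413 up and 1828 down. The labels give replicate numbers and do not say whether same-numbered libraries were prepared together. Over tested genes, same-numbered libraries deviated from their group means with r = −0.177. With the replicate number as a block 2864 genes and 11 enzymes passed, MGAT5 being added. With the crossed pairing, chosen after seeing the data, 4170 genes and 16 enzymes passed. With 2 libraries a group and unknown depth, the error of low FPKM values cannot be given.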
